A study of Mus musculus with 16 samples.

Results

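The cytosolic ribosomal protein genes were followed in the hypothalamus of mice made obese on a high-fat diet, with or without celastrol and with free or rationed food. They were taken as the symbols of the count table that name a numbered large-subunit (Rpl) or small-subunit (Rps) protein, with an a, x or l ending allowed, together with Rplp0, Rplp1, Rplp2 and Rpsa. Pseudogenes and the Rps6k kinases were left out, and a total of at least 160 counts over the 16 libraries was required. Of the 24047 genes in the table, 81 matched and 74 reached that total, 43 of the large and 31 of the small subunit. All 74 were among the 14775 genes tested.

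The cytosolic ribosome joins ribosomal RNA and a copy of each of these proteins into a small subunit, which reads the mRNA, and a large subunit, which makes the peptide bond. Most ribosomal protein mRNAs begin with a run of pyrimidines, the terminal oligopyrimidine (TOP) motif, through which the kinase complex mTORC1 and the RNA-binding protein Larp1 control their translation and stability. In the hypothalamus, mTORC1 is known as a sensor of nutrients and leptin.

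All mice were wild-type C57BL/6J with diet-induced obesity, and all were injected daily with DMSO for 1 week before they were divided at random for 4 days of treatment. PF+CS mice were injected with celastrol, a triterpenoid from thunder god vine known to curb appetite in obesity, at 100 µg per kg per day, and were given 0.5 g of high-fat diet per day, 0.34 g of it in the dark. CS mice received the same celastrol dose with free food, of which celastrol-treated mice ate 0.8 g per day on average. PF mice received DMSO and the 0.5 g ration, so they were given less than CS mice ate. Veh mice received DMSO with free food. Tissue was taken 6 h after the last injection, and each group has 4 libraries of bulk tissue. The labels do not say whether mice of a group shared a cage, litter or day, and they give no age, so p-values measure the spread between these libraries.

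The libraries held between 6008564 (PF 1) and 12880459 (Veh 3) counts. The hypothalamic marker genes Agrp, Pomc, Avp, Oxt, Hcrt, Pmch, Sim1 and Nr5a1 were all detected (8 of 8). Their summed level, in CPM, counts scaled to library size, was 604 to 684 in PF+CS, 643 to 703 in CS, 545 to 712 in PF and 614 to 759.7 in Veh. Levels of meningeal fibroblast markers were low in 5 libraries spread over all 4 groups (PF+CS 4, CS 2, PF 1, PF 2 and Veh 3). The names of 3 of the 5 comparison tables that the authors deposited go against the labels of the count columns, because their mean counts match the columns only when PF and CS are exchanged. PF and CS below mean the columns labelled so. Should the table names be the right ones instead, results given for CS minus Veh would belong to PF minus Veh and the other way round, those of PF+CS minus CS and PF+CS minus PF would likewise trade places, and CS minus PF would change sign. Neither PF+CS minus Veh nor the interaction would be affected.

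The promoter sequences are shown first because ribosomal protein genes are known for a start site within a pyrimidine run, the DNA form of the TOP motif. RefSeq promoters (GRCm38.p6, 250 bases before to 50 after each gene's start) were matched for 54 of the 74 genes. The table holds 5 of the 8 genes that were lower in CS than in Veh. For each, the 40 bases before and the 20 bases from the start are printed, with the longest run of at least 7 pyrimidines that reaches to within 20 bases of the start in capitals.
Rpl37 (chr15:5116573-5116632, plus strand): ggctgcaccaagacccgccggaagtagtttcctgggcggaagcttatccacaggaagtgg
Rps9 (chr7:3704001-3704060, plus strand): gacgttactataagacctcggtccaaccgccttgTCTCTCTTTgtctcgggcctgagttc
Rpl39 (chrX:37085203-37085262, minus strand): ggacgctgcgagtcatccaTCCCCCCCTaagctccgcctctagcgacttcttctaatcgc
Rplp2 (chr7:141447611-141447670, plus strand): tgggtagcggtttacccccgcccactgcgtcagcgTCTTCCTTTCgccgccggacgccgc
Rpl13a (chr7:45128726-45128785, minus strand): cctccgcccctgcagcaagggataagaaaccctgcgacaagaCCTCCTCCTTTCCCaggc

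In Rps9 and Rplp2 the run spans the RefSeq start itself, and in Rpl13a it lies just after it. In Rpl39 the longest run lies before the start and a shorter one, left in lower case, after it, and the Rpl37 window holds no such run. The gene starts given further below come from another annotation and differ from these RefSeq starts. The start in that annotation lies outside the printed window for Rpl37 (5116645), Rps9 (3703993), Rplp2 (141447370) and Rpl39 (37085402). A run at those starts would not be seen. For Rpl13a (45128761) it lies inside the window. A run of this kind was found in 34 of the 54 matched promoters (63%), against 33.7% of all 27018 promoters in the table. The letters CTTCCG, searched on both strands as the core of the ETS family's binding motif, were in 37 of 54 (68.5%), against 18.8% of all promoters. GATGGCG, letters of the YY1 motif, was in 2 of 54 (3.7%), against 4.03%, and TATAAA was in 6 of 54 (11.1%), against 15.7%. A match is a description of the letters in this window, and since CTTCC is all pyrimidines, a run and a CTTCCG match can overlap.

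The 74 genes were abundant and short. Their mean level per length was a median of 63.1 FPKM (6.31 to 196), against 2.99 FPKM over all genes tested. The median transcript length was 749.5 bases (364 to 5130), against 2556.5 bases over all genes tested, and 58 of the 74 were under 1000 bases. Their GC content was a median of 52.2%, against 50.8%. Their total counts over the 16 libraries ranged between 1005 and 54731, with a median of 11209.5.

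By FPKM, Rpl41, the shortest protein of the ribosome, stood highest at 196 ± 9.72 FPKM (SD, n = 16), with 509 bases of transcript. It was followed by Rpl38 at 181 ± 14.1 FPKM (364 bases), Rps21 at 162 ± 15.2 FPKM (394 bases) and Rps15 at 159 ± 10.9 FPKM (500 bases). The ranges of these 4 genes over the libraries overlapped, so their order among themselves is not firm. At the other end stood Rps27l at 6.31 ± 1.28 FPKM (499 bases) and Rps4l at 6.75 ± 0.913 FPKM (789 bases). Rpl22 at 7.99 ± 0.494 FPKM (2048 bases) and Rps15a at 11.6 ± 0.767 FPKM (5130 bases) came next. By name the lowest pair are divergent copies of Rps27, which is below the minimum total, and of Rps4x, which was at 71.9 ± 6.00 FPKM.

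The deposited FPKM and the counts per transcript length do not rank the genes alike. Rpl35 was 7th by FPKM and 66th by counts per kilobase of the median-length annotated transcript (946 bases), while Rps3 (952 bases) was 67th by FPKM and 19th by counts. Rpl21 (1067 bases) was 56th against 13th, and Rps20 (3706 bases) was 36th against 73rd. The length behind the deposited FPKM and the treatment of reads shared with the many processed pseudogenes of this family are not stated, and their part in these ranks was not tested.

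The 7 matching genes under the minimum total were Rps27 (116 counts), Rpl34 (68), Rpl3l (27), Rpl30 (20), Rpl39l (4), Rpl26 (0) and Rpl10l (0). The members with the fewest counts were Rps27l with 1005 and Rps4l with 2263, both well above the limit. Rpl3l, Rpl39l and Rpl10l are known for use in muscle or testis. Rps27, Rpl34, Rpl30 and Rpl26 are parts of the ribosome in every tissue, and the FPKM table lists them at 1.75 ± 0.576, 4.02 ± 1.39, 6.16 ± 1.78 and 5.93 ± 2.70 FPKM (SD, n = 16), so their near-absent counts are not a measure of their expression.

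As a whole, ribosomal protein mRNAs took a smaller share of the counts in both celastrol-treated groups than in Veh. The 74 genes held 0.673 ± 0.0144% of the counts in PF+CS, 0.687 ± 0.00841% in CS, 0.708 ± 0.0186% in PF and 0.729 ± 0.0216% in Veh (SD, n = 4 each). Every PF+CS library (0.657 to 0.686%) and every CS library (0.675 to 0.693%) lay below every Veh library (0.708 to 0.752%), whereas PF (0.697 to 0.736%) overlapped Veh. The overlap came from PF 1 (0.736%) alone, the library with the fewest counts. PF 2, PF 3 and PF 4 (0.703, 0.697 and 0.697%) also lay below every Veh library. By FPKM the shares were 4.36 ± 0.125% in PF+CS, 4.41 ± 0.0613% in CS, 4.46 ± 0.0494% in PF and 4.53 ± 0.125% in Veh, in the same order but with overlapping ranges (4.25 to 4.52% in PF+CS, 4.35 to 4.47% in CS and 4.40 to 4.67% in Veh). In bulk tissue, fewer cells of a type and less of these mRNAs per cell cannot be told apart.

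**Figure D1:**
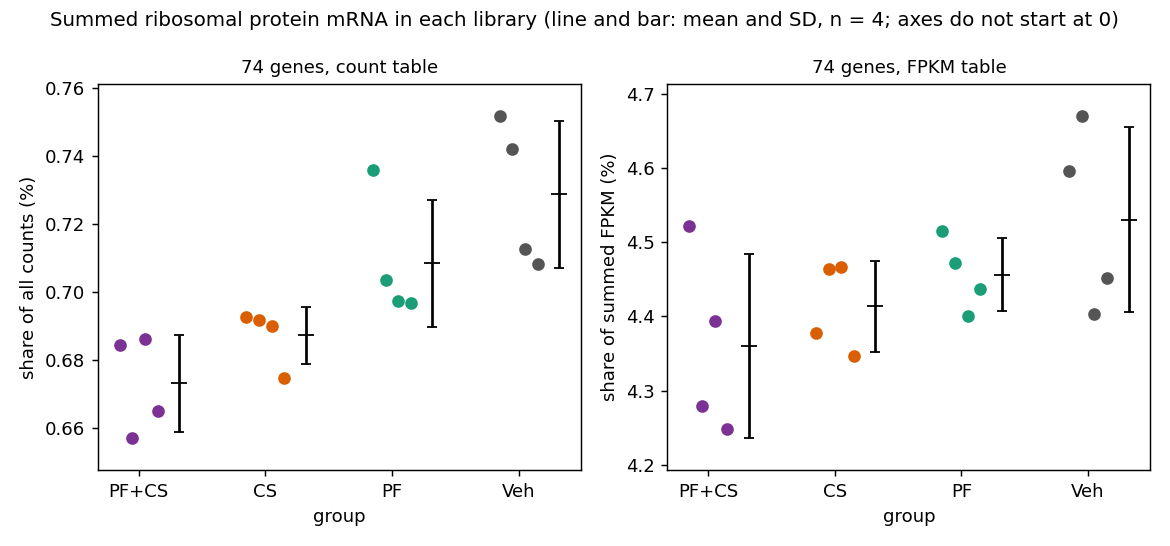
Share of each library taken by the 74 ribosomal protein genes, in percent of counts and in percent of summed FPKM, by group (points, 4 libraries; bars, mean and SD; axes do not start at 0). By counts, all PF+CS and CS libraries (0.657 to 0.693%) lie below all Veh libraries (0.708 to 0.752%), while by FPKM the groups overlap.

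The shift ran across most members rather than resting on a few. Against their own mean over the 16 libraries, 49 to 66 of the 74 genes were low in a PF+CS library and 49 to 63 in a CS library. In PF libraries 11 to 45 were low, and in Veh libraries 14 to 18. PF 1, which has the fewest counts, had the highest median deviation of all 16 libraries (0.098 on the log2 scale, against 0.045 to 0.096 in Veh). These counts describe genes that vary together within a library, so they are not independent of each other.

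**Figure D2:**
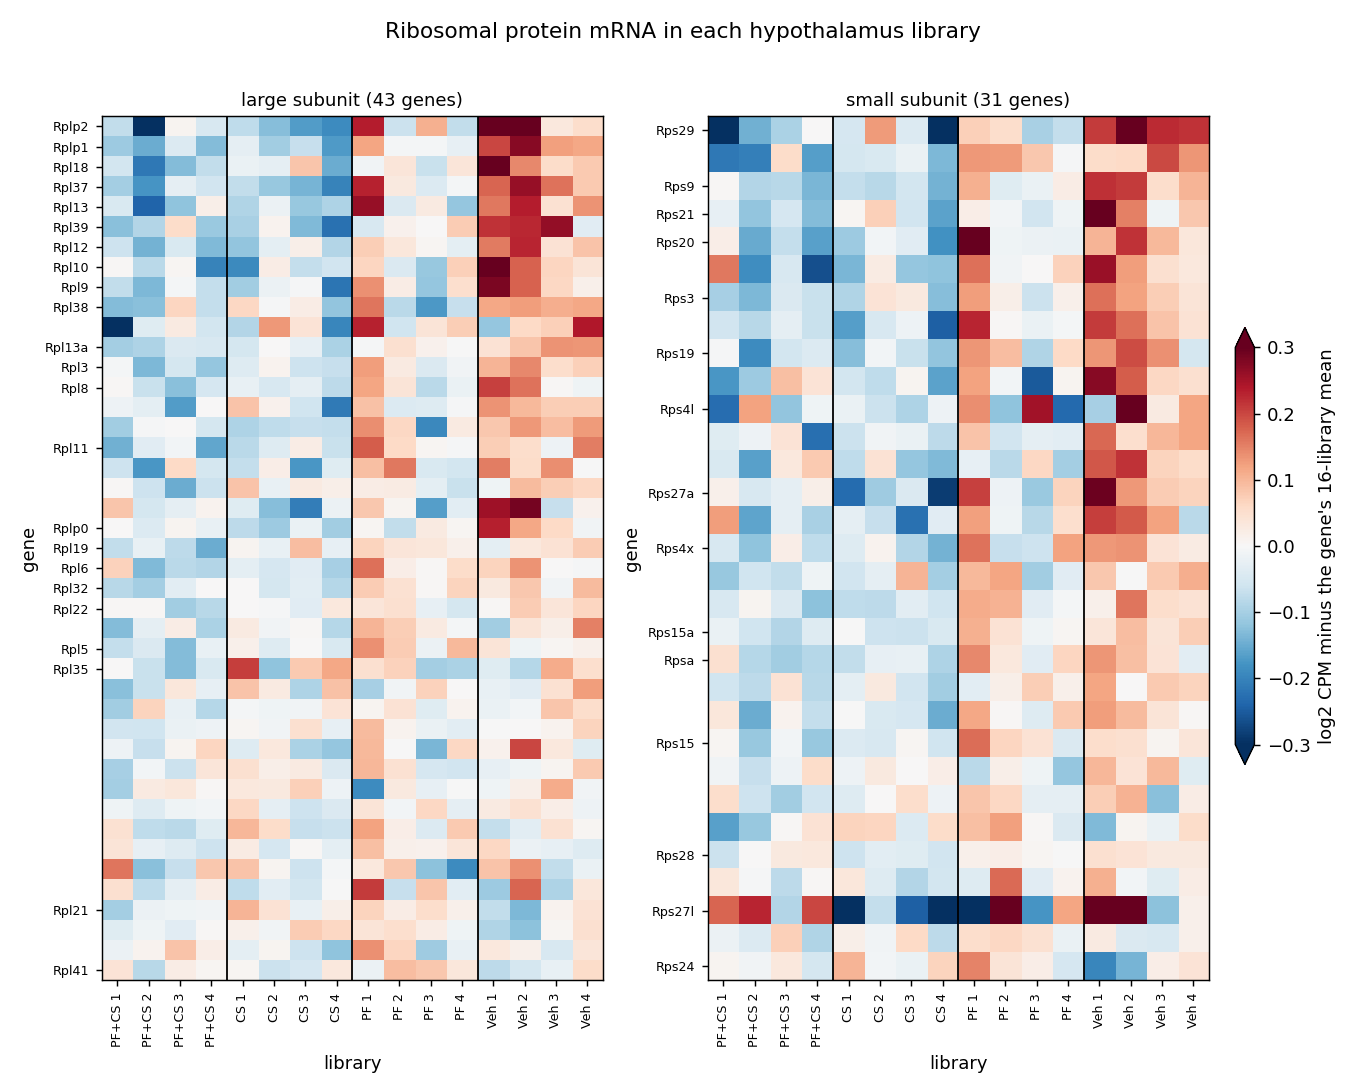
Level of each ribosomal protein gene (rows, 43 large-subunit and 31 small-subunit genes, ordered by their PF+CS minus Veh change, with the rows of genes named in the text labelled) in each of the 16 libraries (columns), as log2 CPM minus the gene's mean over the 16 libraries. Most rows are below their mean in PF+CS and CS and above it in Veh, and PF libraries differ among themselves.

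The acidic stalk of the large subunit, on which translation factors dock, is built of Rplp0 and of dimers of Rplp1 and Rplp2. Rplp1 (chromosome 9, 61913284 to 61914542, minus strand, GRCm38, protein-coding, 499 bases of transcript) had 133, 129, 139 and 131 CPM in PF+CS and 141, 134, 137 and 128 CPM in CS. It had 156, 143, 143 and 141 CPM in PF, against 165, 173, 156 and 155 CPM in Veh. All PF+CS and CS libraries lay below all PF and Veh libraries, and PF and Veh met at their ends. By edgeR with Benjamini-Hochberg (BH) adjustment over all genes, Rplp1 fell in PF+CS by log2 −0.28 (SE 0.04, adjusted p = 0.00015), in CS by log2 −0.27 (SE 0.04, adjusted p = 0.0028) and in PF by log2 −0.16 (SE 0.04, adjusted p = 0.0389), each against Veh. Its FPKM averaged 120.4 ± 6.80 in PF+CS, 123 ± 5.35 in CS, 135 ± 12.3 in PF and 159 ± 19.0 in Veh (SD, n = 4 each).

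Rplp2 (chromosome 7, 141447370 to 141451585, 449 bases of transcript) had 49.1, 42.0, 52.0 and 49.996 CPM in PF+CS and 49.1, 47.3, 46.0 and 45.4 CPM in CS. It had 61.0, 49.5, 55.7 and 49.1 CPM in PF, against 64.8, 66.3, 52.9 and 53.7 CPM in Veh. All PF+CS and CS libraries were below the lowest Veh library, while Veh itself split into a high and a low pair. Rplp2 fell by log2 −0.29 in PF+CS (edgeR, BH-adjusted p = 0.0242) and by log2 −0.33 in CS (adjusted p = 0.0476), each against Veh.

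Rplp0, the base of the stalk and often used as a reference gene, averaged 76.9 ± 1.21 CPM in PF+CS, 73.6 ± 2.11 in CS, 77.2 ± 2.35 in PF and 83.4 ± 6.05 in Veh (SD, n = 4 each). Its 1358-base transcript is longer than those of the other stalk proteins. It was not called: its log2 difference from Veh was −0.11 in PF+CS and −0.18 in CS (edgeR, BH-adjusted p = 0.0758), although every CS library lay below every Veh library. Called beside uncalled does not show that Rplp0 and Rplp1 differed in their response, which was not tested.

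**Figure D3:**
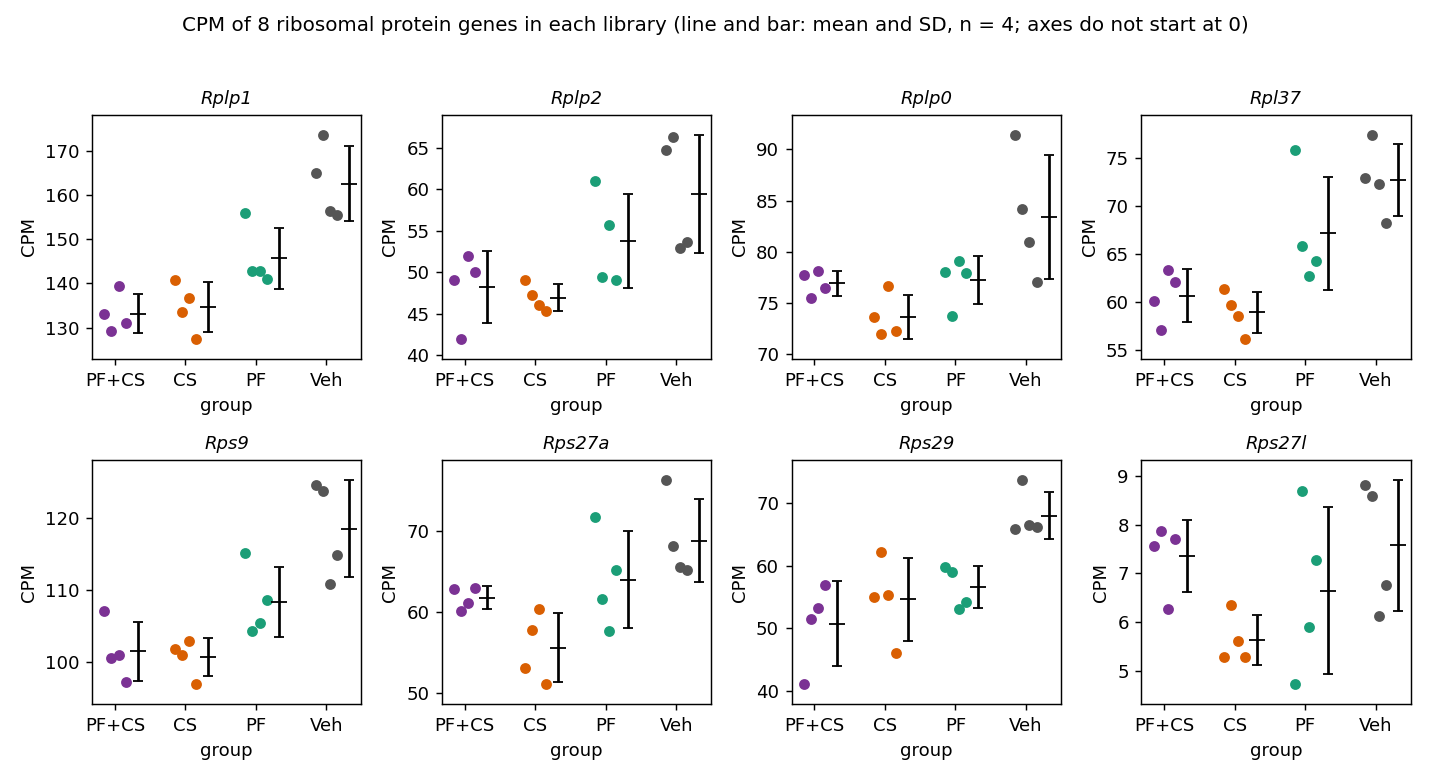
TMM-scaled CPM of Rplp1, Rplp2, Rplp0, Rpl37, Rps9, Rps27a, Rps29 and Rps27l in each library, by group (points, 4 libraries per group; bars, mean and SD; axes do not start at 0). Rplp1 is at 128 to 141 CPM in all celastrol-treated libraries and at 155 to 173 CPM in Veh, while Rps27l overlaps between all groups.

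With free food on both sides, celastrol was accompanied by lower ribosomal protein mRNA. Free food does not mean equal intake. Celastrol-treated mice ate 0.8 g per day on average and the intake of Veh mice is not given, so drug and intake cannot be told apart. In CS minus Veh, 8 of the 74 genes fell and 0 rose, against 0.589% of all genes tested that were called lower and 0.305% called higher. The log2 change was below 0 in 66 of 74, against 50.4% of all genes tested. Its median was −0.12 over the members (−0.41 for Rps27l to 0.10 for Rps24) and 0.00 over all genes tested. In 30 of the 74 genes every CS library was below every Veh library, against 5.27% of all genes tested, and in 0 every CS library was above (3.68% of all genes tested).

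The large-subunit proteins among the 8 were Rplp1, Rplp2, Rpl37, Rpl39 and Rpl13a, and the small-subunit proteins included Rps9 and Rps27a. Rpl37, a zinc-binding protein of the large subunit (chromosome 15, 5116645 to 5119140, plus strand, 835 bases of transcript), had 60.1, 57.1, 63.4 and 62.1 CPM in PF+CS and 61.3, 59.7, 58.6 and 56.2 CPM in CS. It had 75.8, 65.9, 62.7 and 64.3 CPM in PF, against 72.9, 77.4, 72.3 and 68.2 CPM in Veh. Every library of both celastrol-treated groups lay below every Veh library, while PF spread from the celastrol-treated range up into that of Veh. Rpl37 fell in CS by log2 −0.31 (SE 0.06, edgeR, BH-adjusted p = 0.0077), with 30.5 ± 1.01 FPKM in CS and 38.2 ± 3.04 FPKM in Veh (SD, n = 4 each).

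Rps9, a small-subunit protein that lies near the mRNA entry site (chromosome 7, 3703993 to 3706897, plus strand, 896 bases of transcript), had 107, 101, 101 and 97.3 CPM in PF+CS and 102, 101, 103 and 97.0 CPM in CS. It had 115, 104, 105 and 109 CPM in PF, against 125, 124, 111 and 115 CPM in Veh. All libraries of both celastrol-treated groups were below all Veh libraries. Rps9 fell in CS by log2 −0.23 (SE 0.05, edgeR, BH-adjusted p = 0.0106), with 66.3 ± 1.87 FPKM in CS and 80.4 ± 6.68 FPKM in Veh.

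Rps27a (chromosome 11, 29545846 to 29548109, 637 bases of transcript) is made as a fusion with ubiquitin, so its mRNA also supplies that protein. It had 62.9, 60.2, 61.1 and 63.0 CPM in PF+CS, 53.0, 57.8, 60.4 and 51.1 CPM in CS, 71.8, 61.6, 57.6 and 65.2 CPM in PF, and 76.3, 68.2, 65.6 and 65.2 CPM in Veh. CS had the lowest mean, and all PF+CS and CS libraries lay below all Veh libraries. Rps27a fell in CS against Veh by log2 −0.30 (SE 0.06, edgeR, BH-adjusted p = 0.0137) and was not called in PF+CS against Veh.

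Of the other called genes, Rpl39, a small protein lining the exit tunnel of the nascent chain, had 34.1, 36.8, 33.3 and 31.2 CPM in CS against 42.4, 42.7, 43.9 and 35.7 CPM in Veh, with log2 −0.29 (edgeR, BH-adjusted p = 0.0311). Its lowest Veh library lay within the CS range. Rpl13a, known from human cells also for a role in translational silencing, averaged 185 ± 5.27 CPM in CS and 204 ± 6.17 CPM in Veh (SD, n = 4 each), with log2 −0.14 (adjusted p = 0.0487).

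These calls were small and most sat near the threshold. When each library was left out in turn, Rplp1 alone stayed called in all fits, and the count of genes called lower ranged between 1 and 12. It was 1 without CS 4 or Veh 2, 3 without CS 1 or Veh 1, and 5 without CS 3. The count of all genes called also changed between fits and its share is not given, so the range does not describe the members alone. Rpl37 and Rps9 lost the call without CS 4 or Veh 2.

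The ration without celastrol gave the smallest median shift of the 3 groups set against Veh. In PF minus Veh, 1 of 74 genes fell (Rplp1, described above) and 0 rose, against 1.28% of all genes tested called lower and 2.36% called higher. The log2 change was below 0 in 57 of 74, against 50.2% of all genes tested, with a median of −0.05 (−0.27 for Rps29 to 0.10 for Rps24). No overlap between PF and Veh, with PF lower, was seen in 3 of 74 (Rps29, Rpl18 and Rps28), against 3.67% of all genes tested. PF was higher without overlap in 0 of 74, against 4.59%. Rps9 at log2 −0.13 (edgeR, BH-adjusted p = 0.123) and Rpl37 at log2 −0.12 (adjusted p = 0.248) were not called. The Rplp1 call was lost without PF 2, PF 4, Veh 1 or Veh 2, which left 0 members called, while 2 were called without PF 1 and 3 without Veh 3. As the shares of all genes called in those fits are not given, these counts do not describe the members alone.

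Celastrol together with the ration gave the most calls. In PF+CS minus Veh, 21 of 74 genes fell and 0 rose, against 4.47% of all genes tested called lower and 5.85% called higher. The log2 change was below 0 in 69 of 74, against 50.7% of all genes tested, and its median was −0.12 (−0.43 for Rps29 to 0.06 for Rps24). In 29 of the 74 genes every PF+CS library lay below every Veh library, against 6.84% of all genes tested, and in 0 every PF+CS library lay above (6.82% of all genes tested).

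Of the 21, 12 belong to the large subunit (Rplp1, Rplp2, Rpl3, Rpl8, Rpl9, Rpl10, Rpl12, Rpl13, Rpl13a, Rpl18, Rpl37 and Rpl39) and 9 to the small subunit (among them Rps3, Rps9, Rps15a, Rps19, Rps20, Rps21 and Rps29). The group holds Rpl3 and Rpl8, which lie close to the peptidyl transferase centre, Rpl12, which forms the base of the stalk with Rplp0, and Rps3, which lines the mRNA entry channel. Next to Rplp1, the smallest adjusted p-values belonged to Rpl13a at log2 −0.17 (edgeR, BH-adjusted p = 0.0028), Rps9 at log2 −0.22 (adjusted p = 0.0030) and Rpl37 at log2 −0.26 (adjusted p = 0.0035). Rpl13a averaged 181 ± 3.78 CPM in PF+CS and 204 ± 6.17 CPM in Veh (SD, n = 4 each). By FPKM, Rps9 averaged 66.6 ± 4.92 in PF+CS and 80.4 ± 6.68 in Veh, and Rpl37 averaged 31.3 ± 1.52 in PF+CS and 38.2 ± 3.04 in Veh.

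Rps29, a small zinc-binding protein of the small subunit head (chromosome 12, 69157722 to 69159186, 390 bases of transcript), changed most. It had 41.1, 51.5, 53.3 and 56.9 CPM in PF+CS, 55.0, 62.2, 55.3 and 46.0 CPM in CS and 59.8, 59.0, 53.2 and 54.2 CPM in PF, against 65.8, 73.6, 66.5 and 66.2 CPM in Veh. The Veh libraries stood above all others, and the 3 treated groups overlapped each other. Rps29 fell in PF+CS by log2 −0.43 (SE 0.09, edgeR, BH-adjusted p = 0.0049), while CS at log2 −0.32 (adjusted p = 0.0813) and PF at log2 −0.27 (adjusted p = 0.10) were not called against Veh. By FPKM it averaged 127 ± 4.47 in PF+CS, 133 ± 9.55 in CS, 133 ± 5.98 in PF and 158 ± 10.7 in Veh (SD, n = 4 each). On log2(FPKM + 1) it was called lower by limma in PF minus Veh (log2 −0.25, BH-adjusted p = 0.0380), and it is the 1 member of the 74 called there on that scale.

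Of the other called genes, Rpl18 had 38.3, 34.2, 36.3 and 37.8 CPM in PF+CS against 49.3, 44.0, 41.3 and 42.0 CPM in Veh (log2 −0.26, edgeR, BH-adjusted p = 0.0089). The groups did not overlap, and mutations of this gene are known in Diamond-Blackfan anaemia in humans. Among the 21 called genes the groups overlapped in Rpl39, Rpl8 and Rps19. With each library left out in turn, 10 of the 21 stayed called throughout (among them Rplp1, Rpl3, Rpl12, Rpl13a, Rpl18, Rpl37, Rps3, Rps9 and Rps29). The count ranged between 11 and 22, with 11 without PF+CS 2 or Veh 2 and 12 without Veh 1. Here too the shares of all genes called in the left-out fits are not given, so this range does not describe the members alone.

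CS minus Veh, PF minus Veh and PF+CS minus Veh share the same 4 Veh libraries, so their common direction is not independent evidence. For Rplp1 the log2 values against Veh were −0.28 in PF+CS, −0.27 in CS and −0.16 in PF. For Rpl37 they were −0.26, −0.31 and −0.12, and for Rps9 −0.22, −0.23 and −0.13, in the same order of groups.

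**Figure D4:**
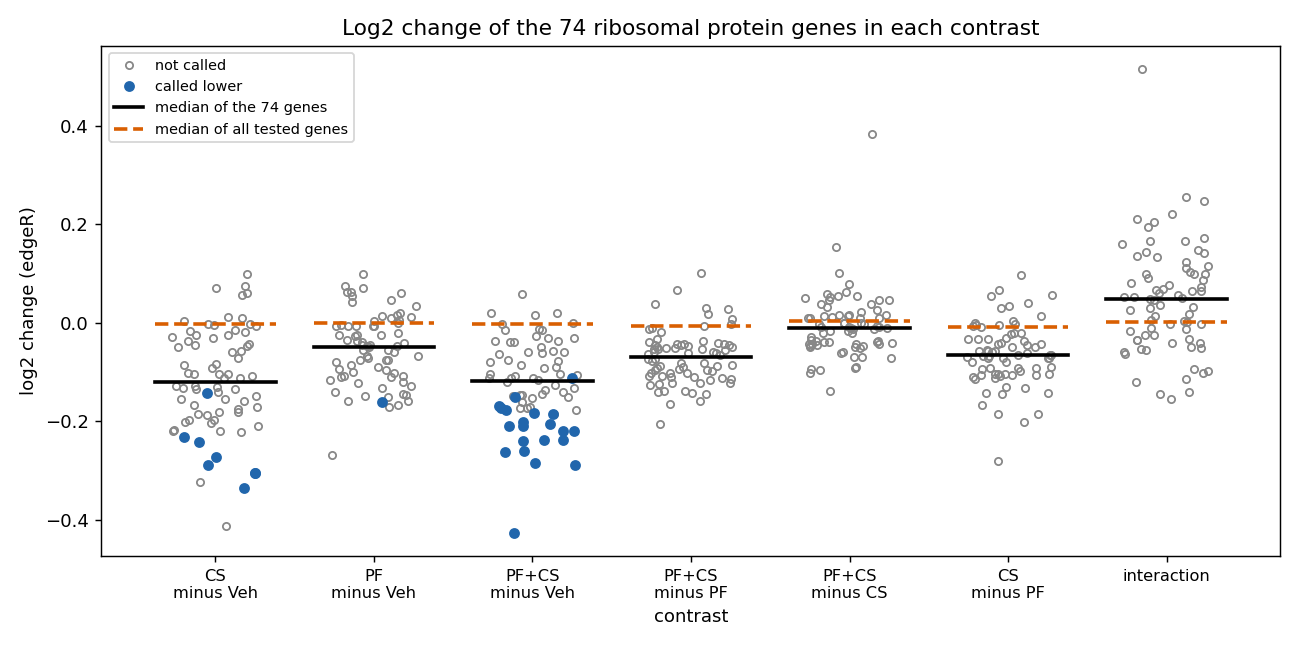
Log2 change of each of the 74 ribosomal protein genes in the group comparisons and the interaction (points, 1 per gene, filled where called lower; black lines, median of the 74 genes; dashed lines, median of all genes tested). The median is −0.12 in PF+CS minus Veh and in CS minus Veh, −0.05 in PF minus Veh and −0.01 in PF+CS minus CS.

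The celastrol effect under the ration was compared in PF+CS minus PF, where 0 of 74 genes were called in either direction by edgeR, DESeq2 or voom, against 0.00677% of all genes tested called lower and 0.088% called higher by edgeR. At an unadjusted p under 0.05, 17 members were lower and 0 higher, against 3.66% and 4.19% of all genes tested. The log2 change was below 0 in 67 of 74, against 52.7% of all genes tested, with a median of −0.07. Every PF+CS library lay below every PF library in 10 of 74, against 2% of all genes tested, among them Rplp1, Rpl5, Rpl11, Rpl12, Rpl13a, Rpl19, Rpl21, Rpl32 and Rps15a. The reverse was seen in 0 of 74, against 2.16%. Rplp1 was at log2 −0.12 (edgeR, BH-adjusted p = 0.430), Rpl37 at log2 −0.14 (adjusted p = 0.529) and Rps9 at log2 −0.09 (adjusted p = 0.666).

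Between the celastrol-treated groups, with the ration added on top of celastrol, the members showed the least difference. In PF+CS minus CS, 0 of 74 were called in either direction by edgeR, DESeq2 or voom, against 0.866% of all genes tested called lower and 1.79% called higher by edgeR. At an unadjusted p under 0.05, 3 were lower and 2 higher, against 6.82% and 9.2% of all genes tested. The log2 change was below 0 in 45 of 74, against 48.7% of all genes tested, with a median of −0.01, and 0 of the 74 were lower or higher without overlap, against 4.33% and 5.75% of all genes tested. Rplp1 differed by log2 −0.01, Rps9 by 0.01 and Rpl37 by 0.05. The smallest adjusted p-values were those of Rps27a (log2 0.15, edgeR, BH-adjusted p = 0.206) and Rps27l (log2 0.38, adjusted p = 0.211).

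Celastrol was set against rationing in CS minus PF, where food intake was not matched, since PF mice were given less than CS mice ate. In CS minus PF, 0 of 74 were called in either direction by edgeR, DESeq2 or voom. Of all genes tested, 2.23% were called lower and 1.56% higher by edgeR. At an unadjusted p under 0.05, 17 were lower and 0 higher, against 10.3% and 7.64% of all genes tested. The log2 change was below 0 in 64 of 74, against 52.8% of all genes tested, with a median of −0.07. In 8 of 74 every CS library lay below every PF library, against 6.04% of all genes tested, among them Rplp1, Rplp2, Rpl6, Rpl32, Rpl37, Rps9 and Rps28. The reverse was seen in 0 of 74, against 4.64%. The nearest to the threshold were Rpl37 (log2 −0.18, edgeR, BH-adjusted p = 0.0682) and Rps27a (log2 −0.20, adjusted p = 0.0721). Rplp1 was at log2 −0.11 (adjusted p = 0.171) and Rps9 at log2 −0.10 (adjusted p = 0.233). Without PF 3, 2 members were called lower, but the share of all genes called in that fit is not given. That count is therefore not a result about the members alone.

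Whether celastrol acted differently under the ration was tested as the interaction, that is, PF+CS minus PF less CS minus Veh. None of the 74 genes was called by edgeR, DESeq2 or voom, as with 0% of all genes tested by edgeR. At an unadjusted p under 0.05, 3 members were below 0 and 8 above it, against 2.29% and 2.72% of all genes tested. The log2 value was below 0 in 26 of 74, against 49.5% of all genes tested, with a median of 0.05. Rplp1 was at log2 0.15, Rpl37 at 0.17, Rps9 at 0.14 and Rps27a at 0.26. Rps27a, like the other members with the smallest adjusted p, was at an edgeR BH-adjusted p of 0.913.

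The divergent copies, Rpsa and Rps24 were not called in any comparison. Rps27l, a homologue of Rps27 known as a p53 target, had 7.57, 7.88, 6.28 and 7.71 CPM in PF+CS, 5.27, 6.35, 5.61 and 5.28 CPM in CS, 4.73, 8.69, 5.89 and 7.28 CPM in PF, and 8.83, 8.59, 6.12 and 6.76 CPM in Veh. CS was low and tight, and PF spanned nearly the whole range of the others. Its log2 difference was −0.41 in CS minus Veh (SE 0.16, edgeR, BH-adjusted p = 0.207) and −0.03 in PF+CS minus Veh, and its interaction was 0.52 (SE 0.22, adjusted p = 0.913), none of them called. Rps4l was at log2 −0.17 in PF+CS minus Veh, −0.16 in CS minus Veh and −0.11 in PF minus Veh, uncalled.

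Rpsa, a small-subunit protein also known as a laminin receptor (1599 bases of transcript), had 191, 175, 172 and 174 CPM in PF+CS, 176, 182, 182 and 174 CPM in CS and 205, 189, 181 and 194 CPM in PF, against 203, 197, 190.3 and 181 CPM in Veh. The groups overlapped, and its log2 difference from Veh was −0.11 in PF+CS (edgeR, BH-adjusted p = 0.0918) and −0.11 in CS (adjusted p = 0.215). Rps24 stood at the upper end, with 204 ± 4.98 CPM in PF+CS, 209.8 ± 8.56 in CS, 210.5 ± 12.2 in PF and 196 ± 15.7 in Veh (SD, n = 4 each), and was not called. Rpl41, the highest by FPKM and the 6th by counts per kilobase, had 120.3 to 131 CPM in PF+CS and 121 to 132 CPM in Veh.

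The members are short, and values by transcript length are given beside theirs. In PF+CS minus Veh the median log2 change of the other tested genes was −0.03 up to 500 bases, −0.04 between 500 and 1000 bases, −0.04 between 1000 and 2000 bases, 0.00 between 2000 and 4000 bases and 0.03 above 4000 bases. Among other genes under 1000 bases, 5.63% were called lower in PF+CS minus Veh (median log2 −0.04) and 1.09% in CS minus Veh (median −0.03). The 58 members under 1000 bases had medians of −0.14 in PF+CS minus Veh and −0.13 in CS minus Veh, with 17 and 8 called lower. The 16 longer members had medians of −0.10 in both, with 4 and 0 called lower.

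**Figure D5:**
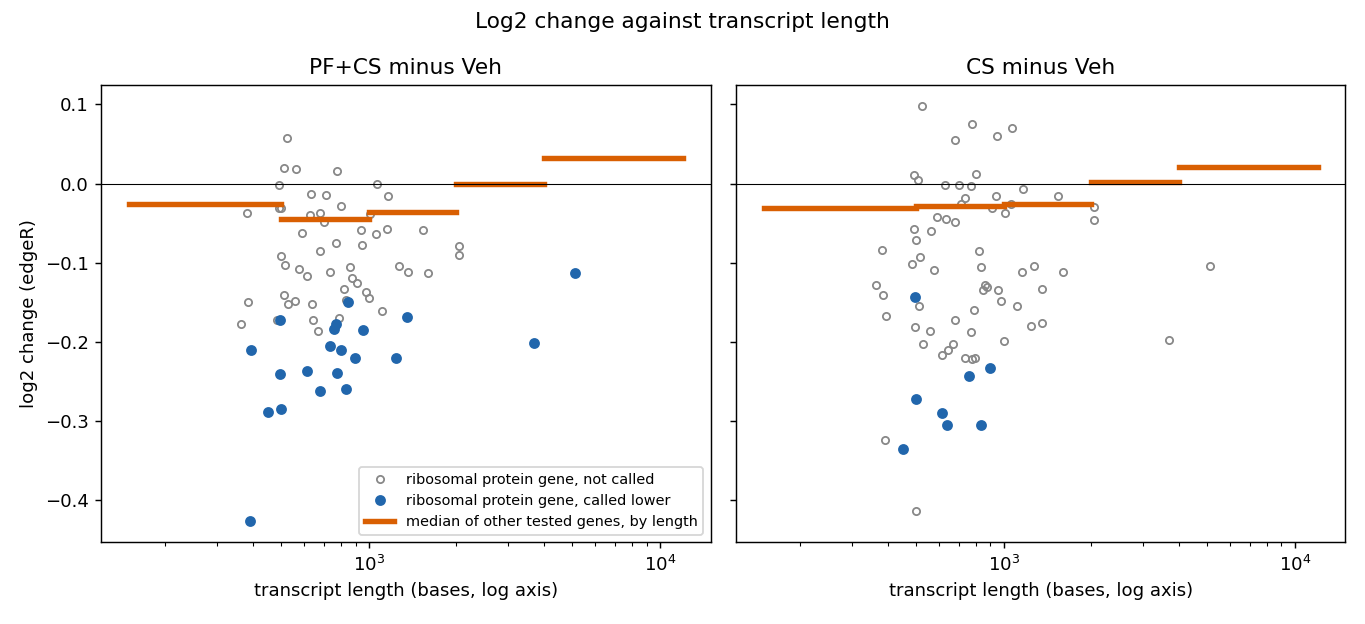
Log2 change of each ribosomal protein gene against its transcript length in bases (log axis), for PF+CS minus Veh and CS minus Veh (points, 1 per gene, filled where called lower; orange, median of the other tested genes in each length class). The members lie mostly below the orange medians, which run between −0.04 and 0.03 in PF+CS minus Veh.

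With an offset that removes trends with length and GC content from each library, the members' median log2 change was −0.08 in PF+CS minus Veh, −0.08 in CS minus Veh and −0.05 in PF minus Veh, with 12, 5 and 0 called lower, against 5.27%, 0.562% and 1.56% of all genes tested in the same fits. Rplp1 was then at log2 −0.22 in PF+CS minus Veh (edgeR, BH-adjusted p = 0.0003) and −0.20 in CS minus Veh (adjusted p = 0.0051). On the deposited FPKM, tested by limma on log2(FPKM + 1), 19 members were called lower in PF+CS minus Veh, 0 in CS minus Veh and 1 in PF minus Veh, against 6.04%, 0.0812% and 0.474% of all genes tested. The members' medians there were −0.16, −0.14 and −0.07, beside −0.05, −0.04 and −0.02 over all genes.

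Other measurements of the same libraries are given beside these values. Rn45s, the gene of the ribosomal RNA precursor, held 3.21 ± 0.558% of the counts in PF+CS, 2.73 ± 0.206% in CS, 3.17 ± 0.537% in PF and 4.29 ± 0.928% in Veh (SD, n = 4 each). It was not called against Veh, although every CS library (2.44 to 2.89%) lay below every Veh library (3.48 to 5.62%). PF+CS and PF overlapped Veh. Whether its counts came from precursor or mature ribosomal RNA was not tested. Endothelial markers (5 of 5 detected) summed to 132 to 159.6 CPM in PF+CS, 104 to 140.2 CPM in CS, 89.2 to 118 CPM in PF and 86.6 to 103 CPM in Veh. Flt1, the VEGF receptor of endothelium, rose in all 3 against Veh, and Pecam1 rose in PF+CS. Of the 5 markers, the log2 change was below 0 in 1 in PF+CS, 1 in CS and 3 in PF (medians 0.46, 0.24 and −0.13). Microglial markers (5 of 5) summed to 123 to 149.6 CPM in PF+CS, 147 to 156 CPM in CS, 124 to 145 CPM in PF and 156 to 159 CPM in Veh. Astrocyte markers (5 of 5) summed to 1171 to 1216 CPM in PF+CS, 1227 to 1269.6 CPM in CS, 1237 to 1289 CPM in PF and 1253 to 1285 CPM in Veh. Choroid plexus markers (2 of 6 tested, none called) summed to 36.7 to 45.1 CPM in PF+CS, 38.1 to 42.0 CPM in CS, 41.0 to 50.2 CPM in PF and 42.1 to 51.7 CPM in Veh. Oligodendrocyte markers (5 of 5) summed to 2709 to 3135 CPM in PF+CS, 3295 to 3595 CPM in CS, 2712 to 3084 CPM in PF and 2815 to 3393 CPM in Veh. In PF+CS minus Veh the log2 change was below 0 in 5 of 5 astrocyte markers (median −0.16), of which Gfap fell (log2 −0.33). It was below 0 in 4 of 5 microglial markers (median −0.30) and 4 of 5 oligodendrocyte markers (median −0.23), and the 1 marker above 0 in each, C1qa and Mobp, was the 1 called, as higher. Neuronal markers (6 of 6, none called) summed to 2500.1 to 2629.7 CPM in PF+CS, 2642 to 2709 CPM in CS, 2529 to 2661 CPM in PF and 2447 to 2679.6 CPM in Veh. Hba-a1, Hba-a2, Hbb-bs and Hbb-bt, which mark blood, are listed at 0. The part of these differences in the ribosomal protein values was not tested. Without the 5 libraries low in meningeal markers, 17 members were called lower in CS minus Veh and 4 in PF minus Veh. The share of all genes called in that fit is not given here, so these counts are not a result about the members alone.

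The genes that make, load or regulate the ribosome were counted from lists of background knowledge. Beside these counts, 4.47% of all genes tested were called lower and 5.85% higher in PF+CS minus Veh, 0.589% and 0.305% in CS minus Veh, and 1.28% and 2.36% in PF minus Veh. Of 6 tested ribosomal or ribosome-bound proteins whose symbols follow another pattern, Gnb2l1 (Rack1), a scaffold on the small subunit, fell by log2 −0.18 in PF+CS minus Veh (edgeR, BH-adjusted p = 0.0389) and by −0.26 in CS minus Veh (adjusted p = 0.0276). Fau, a fusion with a ubiquitin-like protein, was not called, nor were Rpl22l1, Rpl36al and Rpl7l1.

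Among 19 non-ribosomal genes known for TOP mRNAs, 2 fell in PF+CS minus Veh, 0 were called in CS minus Veh and 1 fell in PF minus Veh, with 0 higher throughout and medians of −0.03, −0.04 and 0.02. Btf3, a subunit of the nascent-chain-associated complex, fell by log2 −0.22 in PF+CS (edgeR, BH-adjusted p = 0.0080) and by −0.20 in PF (adjusted p = 0.0383), each against Veh. Eif3f, an initiation factor subunit, fell by log2 −0.21 in PF+CS minus Veh (adjusted p = 0.0183). Eef1a1, the elongation factor that brings tRNA to the ribosome, was at log2 −0.03 in PF+CS, 0.01 in CS and 0.05 in PF against Veh, none called. Of 15 other translation factors, Eif5a fell in PF+CS minus Veh (log2 −0.15, adjusted p = 0.0157).

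Of 23 genes of the mTORC1 pathway, 2 rose in PF+CS minus Veh, 0 in CS minus Veh and 2 in PF minus Veh, and 0 fell in these comparisons. They were Ddit4 (log2 1.18 in PF+CS and 1.21 in PF against Veh, edgeR, BH-adjusted p = 0.0063 and 0.0148) and Sesn1 (log2 0.36 and 0.34, adjusted p = 0.0024 and 0.0096), both known as inhibitors of mTORC1 under stress or fasting. Both also rose in PF+CS minus CS and fell in CS minus PF (edgeR), where the group on the ration was the higher one. Mtor and Larp1 were not called in any comparison.

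Of 15 genes of ribosomal RNA transcription, Polr1c, a subunit shared by RNA polymerases I and III, fell in PF+CS minus Veh (log2 −0.37, edgeR, BH-adjusted p = 0.0383), and Ttf1, a termination factor of polymerase I, rose (log2 0.33, adjusted p = 0.0073). Of 41 ribosome biogenesis factors, 0 were called against Veh in PF+CS, CS or PF, and their medians were 0.03, 0.02 and 0.04. Of 12 ribosomal protein chaperones and quality control factors, 0 were called against Veh. In CS minus PF, Mdn1, a remodelling ATPase of the large subunit, fell by log2 −0.14 (adjusted p = 0.0311), and Ltn1, a ubiquitin ligase of stalled ribosomes, fell by log2 −0.15 (adjusted p = 0.0323).

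The authors' deposited tables call 16 of the members lower from the PF+CS and Veh columns, against 2.52% of the genes with an adjusted p in that table. Taken from the CS and Veh columns, another of the authors' deposited tables calls 14 of the 71 members that have an adjusted p there, against 2.17% of the 7463 genes that have one. From the PF and Veh columns the authors' deposited table calls 1 member lower, Rps29, against 0.794%. From the CS and PF columns it calls 0 lower (2.01% of genes with an adjusted p), and from the CS and PF+CS columns 0 (1.06%). No member is called higher in any of these tables. Rplp1, Rpl37, Rps9, Rplp2 and Rpl13a are among those called lower in the authors' deposited tables from both the PF+CS and Veh and the CS and Veh columns, which share their Veh libraries.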

How the data were processed

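RNA of the hypothalamus was extracted on columns and, per the labels' protocols, sequenced from libraries of a SMARTer mRNA kit. Deposited by the authors were raw counts of each gene, FPKM values for the same 16 libraries and 5 comparison tables. Those tables hold the authors' baseMean (a mean of normalised counts), log2 fold change, its standard error, a p-value and an adjusted p-value. The build was GRCm38 per the submitters' processing notes. How reads were aligned, counted (strand included) and turned into FPKM is not given in the sources used.

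A single edgeR 4.0.16 fit (R 4.3.3) took the counts of the 16 libraries (robust quasi-likelihood, TMM scaling, filterByExpr with a minimum count of 10, 1 mean per group), which left 14775 genes and a common biological coefficient of variation of 0.0549. Genes were called at a Benjamini-Hochberg adjusted p of at most 0.05 within each of 7 contrasts. CPM are TMM-scaled and SD is over libraries. The code was checked on simulated data. Alternatives were DESeq2 1.42.0, voom in limma 3.58.1, other scaling and filters, a length and GC offset (mgcv 1.9.3), limma on log2(FPKM + 1) and log2(FPKM + 0.1), and left-out libraries. Transcript length and GC content are those of the median-length basic transcript in GENCODE M21 (GRCm38), found for 22634 of 24045 symbols. Of all symbols, 27 had been turned into dates and are not named. There were 0 columns of other series.

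The members, gene lists and alternatives were chosen with earlier results of these data known. Named were Rplp1, Rpl37 and Rps9, called members, the highest and lowest per length, divergent copies, the stalk, Rpsa, Rps27a, the members with the most unlike ranks, and up to 3 called genes of each other list. Rps24, Fau, Eef1a1, Mtor and Larp1 were named in addition. Some genes that these rules name are not reported here.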

Additional observations from a re-analysis of the deposited data

Results flagged for a closer look

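In groups of 4 libraries, a library was singled out where its gap to the nearest other, as a share of the group's range, exceeded Dixon's critical value for 4 libraries. Of 76 groups checked, 5 met this, and chance alone singles out about 1 in 20. Rplp1 was at 155.861 CPM in PF 1, with 141 to 143 CPM in the other PF libraries. PF 1, the library with the fewest counts, also had the highest share of counts in the 74 ribosomal protein genes at 0.73595%, with 0.697 to 0.703% in the other PF libraries. CS 4 had the lowest share at 0.674792%, with 0.690 to 0.693% in the other CS libraries. Rps29 was at 73.6403 CPM in Veh 2, with 65.8 to 66.5 CPM in the other Veh libraries. Rpsa was at 191.372 CPM in PF+CS 1, with 172 to 175 CPM in the others.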

How the results depend on the processing

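Members called lower in PF+CS minus Veh numbered 21 and became 12 with the length and GC offset. In CS minus Veh, 8 became 13 by DESeq2, 13 with those 2 groups fitted alone, 5 with the offset, 0 on log2(FPKM + 1), 2 on log2(FPKM + 0.1) and 17 without the 5 libraries low in meningeal markers. In PF minus Veh, 1 became 0 with the offset and 4 without those 5 libraries. Leaving out each library in turn gave 11 to 22, 1 to 12 and 0 to 3 in these comparisons and 0 to 2 in CS minus PF. No fit called a member higher. Shares of all genes called are given above for the offset and log2(FPKM + 1), but not for the other fits of this section. The count of all genes called also changed between fits, so these counts are not a result about the members alone. Near 0 in PF+CS minus CS, Rplp1 ranged between log2 −0.0395248 (without CS 4) and 0.004257 (without CS 1), and Rps9 between −0.015954 (without PF+CS 1; −0.005722 without CS 4) and 0.0284851 (without PF+CS 4), so both changed sign. The cause of these shifts was not tested.

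With the replicate number as a block, 20, 7 and 1 members were called lower in PF+CS, CS and PF against Veh. Same-numbered libraries correlated by −0.415 to 0.326 (over 0.1 in 5 of 24 pairs), and differently numbered ones by −0.344 to 0.390 (22 of 72 pairs). A library correlated best with its own number in 10 of 48 cases. These values gave no sign of pairing by number, but they cannot tell whether same-numbered libraries shared a cage or day.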
